A study of Mus musculus with 9 samples.

Results

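Arc, Ier2, Ier3, Ier5, Egr1, Egr2, Egr3, Nr4a1 and Btg2 are early-response genes, and their RNAs were followed here through a RIP-seq experiment on phosphorylated UPF1 (p-UPF1). They were picked by gene symbol, with values of these libraries known. Every transcript carrying one of these symbols was summed, which gave 9 genes with 23 transcripts among 54325 symbols and 140658 transcripts in the table. All 9 libraries came from the mouse neuroblastoma line N2A after 2 h in 200 nM okadaic acid, which inhibits protein phosphatases, so that no library came from untreated cells. The groups were RNA without immunoprecipitation (input), RNA recovered with control rabbit IgG (rIgG IP) and RNA recovered with antibody to p-UPF1 (p-UPF1 IP), with 3 libraries each. RNA was cleaved with RNase I and fragments of 25 to 50 nt were sequenced. The labels do not say whether replicates came from separate cultures, so the spread between libraries may be technical.

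Early-response genes are switched on within minutes of a stimulus without the need for new protein synthesis, and their mRNAs are as a rule short-lived. UPF1 is the RNA helicase at the centre of nonsense-mediated mRNA decay (NMD), and it is phosphorylated when it has joined a terminating ribosome on an mRNA marked for decay. A well-known mark is an exon junction well downstream of the stop codon, whereas AU-rich elements in the 3′ UTR recruit a separate set of decay factors.

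The total estimated count was 25184464 to 29857955 for input, 5312526 to 6246110 for the p-UPF1 IP and 79010 to 474491 for the rIgG IP. A count of 3, taken here as the smallest that the depth can show, stood for 6.32 to 38.0 CPM (the count scaled by the library total) in the rIgG IP, against at most 0.119 CPM in input and 0.565 CPM in the p-UPF1 IP. Of 14 neuroblastoma and neuron markers, 11 had at least 10 counts in each input library and their summed level was 230 to 258 CPM, whereas Nefl was at 0. The summed markers of astrocytes, oligodendrocytes, microglia and endothelium reached at most 0.0769, 2.04, 0.199 and 1.58 CPM, respectively.

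Arc is shown first by its sequence because it was the only one of the 9 with exon junctions more than 50 nt downstream of its stop codon. Arc lies on the minus strand at chr15:74669083-74672570 (GRCm38), and both annotated transcripts carry 2 introns in the 3′ UTR. The transcripts differ by 3 nt at the first of these junctions and by 2 nt at the 5′ end, and share the second junction. The lines below give 12 nt before the junction in lower case and 12 nt after it in capitals.

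Arc-201, 617 nt after the stop codon: cctggcccccagCAGTGATTCATA
Arc-202, 617 nt after the stop codon: cctggcccccagTGATTCATACCA
Arc-201 and Arc-202, 757 and 754 nt after the stop codon: gaatgacaccagGTCTCAAGGCTG

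Among 12561 protein-coding genes whose most-counted coding transcript could be described, 68 (0.541%) had such a downstream junction and 15 (0.119%) had 2 or more. The median log2 fold change of p-UPF1 IP over input was 0.50 in the 68 genes, which include Arc, and -0.18 in all 12561. The quartiles overlapped widely, at -0.47 to 1.39 and -1.19 to 0.81, and those of the 15 genes were -2.34 to 2.65. Whether the junctions bear on the level of Arc was not tested.

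Nr4a1 lies on the plus strand at chr15:101254269-101274795, and its 5′ junctions are shown because the transcript that received most of its counts differed between input and the p-UPF1 IP. Nr4a1-201 and Nr4a1-202 share 6 exons, which include all of the 3′ UTR, and have different exons upstream of them. Capitals again mark the bases after the junction.

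Nr4a1-201, exon 1 to exon 2: ggagccggctggAGATGCCCTGTA
Nr4a1-202, exon 1 to exon 2: ccgctgggccagGCCACCATGGAC
Nr4a1-202, exon 2 to exon 3: cacccagagtggAGATGCCCTGTA

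Ier3, on the plus strand at chr17:35821684-35822923, and Btg2, on the minus strand at chr1:134075170-134079120, were the only members with the AU-rich heptamer TATTTAT in the 3′ UTR. The sites are shown because the heptamer is a core of the AU-rich elements that recruit decay factors other than UPF1. The heptamer, searched on the transcript strand with overlaps allowed, is in capitals, and each distance is from the end of the stop codon.

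Ier3, 182 nt: ctaattaaTATTTATgtatttat
Ier3, 190 nt: tatttatgTATTTATgtatatcc
Ier3, 232 nt: gtatgtaaTATTTATtctaactt
Ier3, 287 nt: aacacagaTATTTATtacgattt
Btg2, 103 nt: tgaagagcTATTTATacatgttt

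At least 1 such heptamer stood in the 3′ UTR of 27.6% of the 12561 genes, which is a description of the letters and not of bound factors. The median log2 fold change of p-UPF1 IP over input was -0.25 in the genes with the heptamer and -0.15 in those without it.

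**Figure D1:**
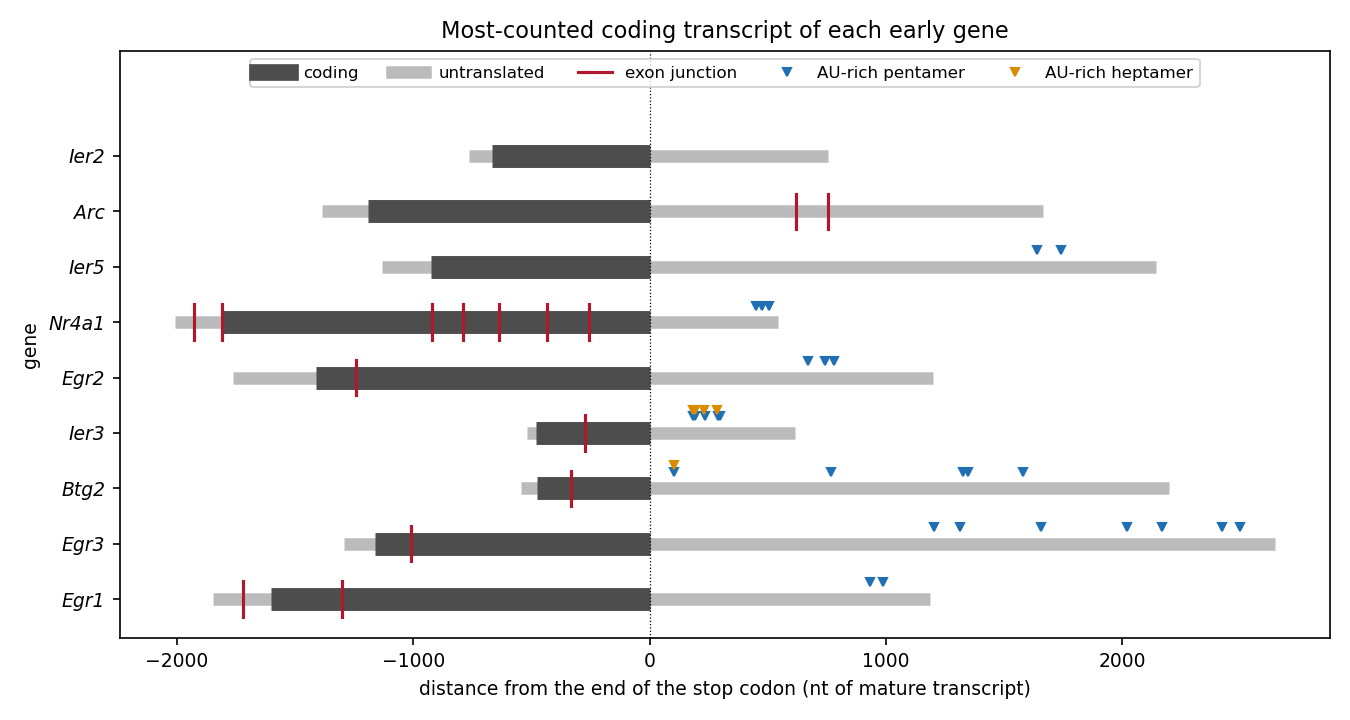
Most-counted coding transcript of each gene, drawn to scale in nt from the end of the stop codon, with coding parts in dark grey, untranslated parts in light grey, exon junctions as red lines, the pentamer ATTTA as blue and the heptamer TATTTAT as orange triangles. Arc alone has junctions to the right of the stop codon, and Ier2 and Ier5 have no junction at all.

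The remaining genes had simple structures. Ier2 (chr8:84661331-84662852, minus strand) and Ier5 (chr1:155096361-155099636, minus strand) are single-exon genes, as were 372 (2.96%) of the 12561, whose median log2 fold change in p-UPF1 IP over input was -1.01. Ier3, Egr2 (chr10:67535475-67542188), Egr3 (chr14:70077203-70082614) and Btg2 had 2 exons, Egr1 (chr18:34859823-34864984) had 3 and Nr4a1 had 8, where the median gene had 9. Positions are those of the gene and exon numbers those of the most-counted transcript, which for Egr1 was Egr1-202, while Egr1-201 has 2 exons. No other annotated gene overlapped any of the 9 loci, on either strand.

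The 3′ UTRs ranged from 543 nt in Nr4a1 to 2645 nt in Egr3, around a median of 955 nt over all described genes. Arc (1665 nt) and Ier2 (755 nt) held no copy of the pentamer ATTTA, as was the case for 35.4% of genes. Their 3′ UTRs were GC-rich, at 57.1% and 58.5%, above those of 95.6% and 97.3% of genes. By contrast, Ier3 held 5 pentamers, or 8.16 per kb, above 98.2% of genes, and Nr4a1 held 3, or 5.52 per kb, above 94.9% of genes. Ier5 and Egr1 held 2 each, Egr2 held 3, Btg2 held 5 and Egr3 held 7. The features of Ier2 were read from an earlier version of its transcript than the one counted.

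To compare levels between genes, counts were scaled by library size with TMM factors (CPM) and divided by the length of the most-counted transcript. In input, Egr1 was the most abundant of the 9, at 15.6 ± 1.59 CPM per kb (SD, n = 3), followed by Ier2 at 8.07 ± 0.36. Ier3, Btg2 and Ier5 came next at 2.83 ± 0.06, 2.51 ± 0.16 and 2.20 ± 0.06 CPM per kb, then Arc at 1.58 ± 0.15, Nr4a1 at 1.32 ± 0.31, Egr2 at 0.553 ± 0.064 and Egr3 at 0.158 ± 0.101. The libraries of neighbours in this order did not overlap, except those of Arc and Nr4a1.

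The order was different in the p-UPF1 IP. Ier2 came first at 149.9 ± 5.74 CPM per kb, and Ier5 at 18.6 ± 2.39 and Arc at 17.9 ± 1.45 overlapped behind it. Egr1, the highest in input, came after them at 8.47 ± 0.68 CPM per kb and overlapped Nr4a1 at 6.997 ± 1.02. Ier3 at 4.33 ± 1.05, Btg2 at 2.75 ± 0.56, Egr2 at 1.56 ± 0.16 and Egr3 at 0.118 ± 0.029 followed, with no overlap between neighbours.

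**Figure D2:**
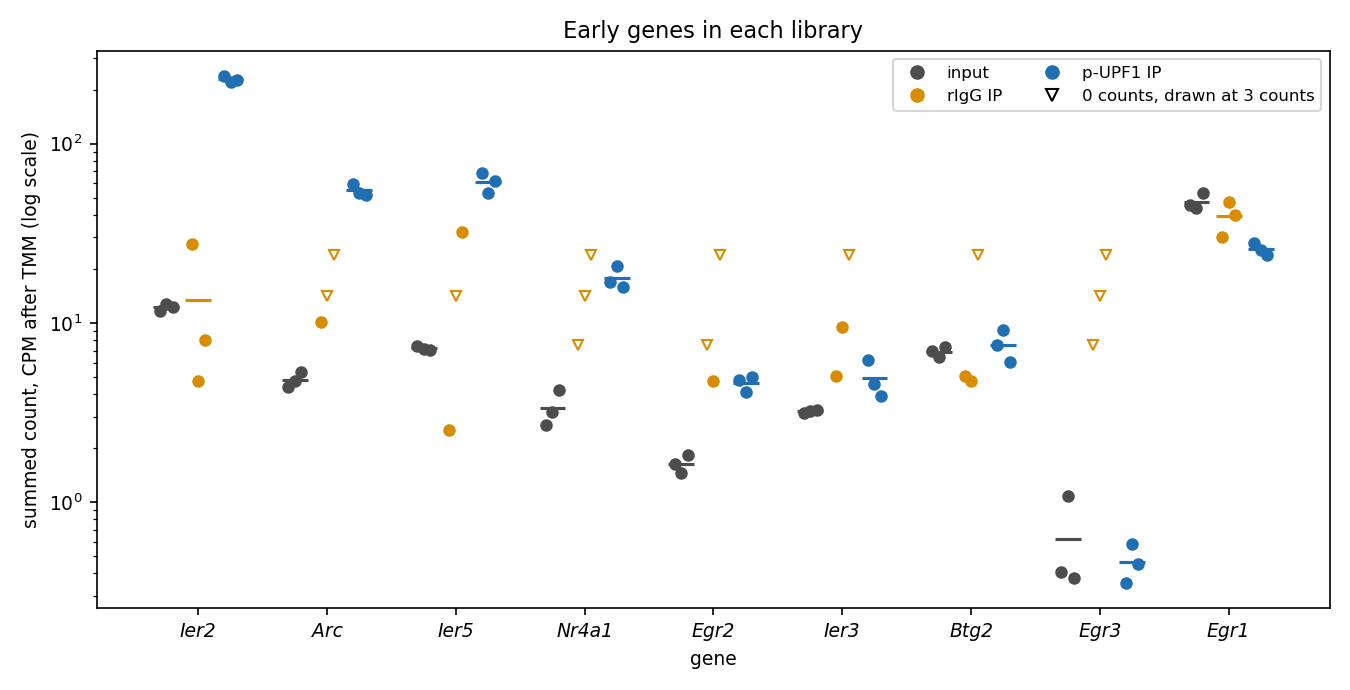
Summed count of each gene in each library as CPM after TMM (log scale), with input in grey, rIgG IP in orange and p-UPF1 IP in blue, lines at the mean of 3 libraries where none was at 0, and open triangles for libraries with 0 counts, drawn at 3 counts. Ier2, Arc, Ier5 and Nr4a1 separate most widely between input and the p-UPF1 IP, while Egr1 is the gene whose p-UPF1 IP libraries all lie below input.

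How each gene's RNA was represented in the p-UPF1 IP relative to input was the first comparison. Ier2, Arc, Ier5, Nr4a1 and Egr2 were higher in the p-UPF1 IP, Egr1 was lower, and Ier3, Btg2 and Egr3 lay closer to input. By edgeR's quasi-likelihood fit over 16919 genes, 5 of the 9 were past both thresholds for higher RNA (adjusted p under 0.05, log2 fold change over 1), as were 17.3% of all genes tested. None was past them downward (26.5% of all genes tested), by edgeR or DESeq2. At an unadjusted p under 0.05, 6 of the 9 were higher and 1, Egr1, was lower by both. By edgeR, 11275 of the 16919 genes tested were at such a p in either direction. The log2 fold change of Egr1, -0.91 by edgeR and -0.89 by DESeq2, did not reach the fold threshold. The genes were chosen with values of these libraries known, so their fold changes are given as a description without p-values. The numbers of them past thresholds, in this and the other comparisons, are likewise a description and not a test. The median of all genes was -0.42 on the log2 scale, and it was -0.01 when libraries were scaled by their totals alone.

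Ier2 encodes a nuclear protein induced by growth factors. The input libraries held 258, 273 and 296 of its counts, and those of the p-UPF1 IP held 1337, 1509 and 1492 at a lower depth. Scaled for depth, its level was 12.3 ± 0.547 CPM in input and 228 ± 8.74 CPM in the p-UPF1 IP, with no overlap. The log2 fold change of 4.19 ± 0.08 (SE), or 18.2-fold, was the largest of the 9 and ranked 202 among all genes tested.

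Ier5 carries the same amino-terminal IER domain as Ier2 and is known to bring the phosphatase PP2A to its substrates. Its counts were 164, 152 and 170 before and 385, 361 and 407 after p-UPF1 immunoprecipitation. The level was 7.22 ± 0.197 CPM in input and 61.0 ± 7.82 CPM in the p-UPF1 IP, a log2 fold change of 3.05 ± 0.11. Ier2 and Ier5, both single-exon genes, thus lay above 98.8% and 97.6% of all genes tested.

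Ier3, a stress-induced regulator of cell survival that shares its name but no IER domain with Ier2 and Ier5, lay closer to input. Its 69, 69 and 78 input counts stood beside 35, 31 and 26 after immunoprecipitation. Every p-UPF1 IP library was above every input library after scaling, at 4.90 ± 1.19 against 3.21 ± 0.0644 CPM, but the log2 fold change was 0.57 ± 0.19.

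Arc, a regulator of AMPA receptor traffic at synapses whose protein assembles into capsid-like shells, was counted 97, 101 and 127 times in the input libraries. Despite the lower depth, the p-UPF1 IP libraries gave 336, 363 and 340 counts. The level was 4.81 ± 0.449 CPM in input and 54.8 ± 4.44 CPM in the p-UPF1 IP, without overlap of libraries. The log2 fold change was 3.48 ± 0.10, or 11.1-fold, above 98.3% of all genes tested.

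Egr1, Egr2 and Egr3, zinc-finger transcription factors that bind the same GC-rich element, did not share a direction. Egr1 had the largest input counts of the 9, at 997, 936 and 1268, and 157, 173 and 158 counts after immunoprecipitation, which gave 47.3 ± 4.82 and 25.7 ± 2.06 CPM. All of its p-UPF1 IP libraries were below all of its input libraries, with a log2 fold change of -0.91 ± 0.10, which was 0.49 below the median of all genes.

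Egr2 was sparse, with input counts of 36, 31 and 44 and p-UPF1 IP counts of 27, 28 and 33. Its level of 4.63 ± 0.465 CPM in the p-UPF1 IP was above that of 1.64 ± 0.190 CPM in input in every library, with a log2 fold change of 1.46 ± 0.20. Egr3 was at the limit of what the depth can show, with input counts of 9, 23 and 9 and p-UPF1 IP counts of 2, 4 and 3. Its groups overlapped and its log2 fold change of -0.41 ± 0.61 turned to 0.24 without input replicate 2.

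Nr4a1, an orphan nuclear receptor, gave 59, 68 and 101 input counts against 95, 142 and 105 from p-UPF1. The level was 3.36 ± 0.779 CPM in input and 17.9 ± 2.61 CPM in the p-UPF1 IP, with no overlap and a log2 fold change of 2.38 ± 0.17.

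Btg2, an antiproliferative member of the BTG/TOB family that stimulates deadenylation, gave 153, 137 and 175 input counts against 42, 62 and 40 from p-UPF1. The groups overlapped at 6.89 ± 0.437 and 7.54 ± 1.52 CPM. Its log2 fold change of 0.10 ± 0.15 was 0.51 under library totals and -0.03 without p-UPF1 IP replicate 2, so that its sign was not fixed.

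Counting libraries rather than fitted changes, 6 of the 9 genes had every p-UPF1 IP library above every input library, where 28.4% of genes tested did. The reverse held for Egr1 alone, where it held for 41.6% of genes tested.

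**Figure D3:**
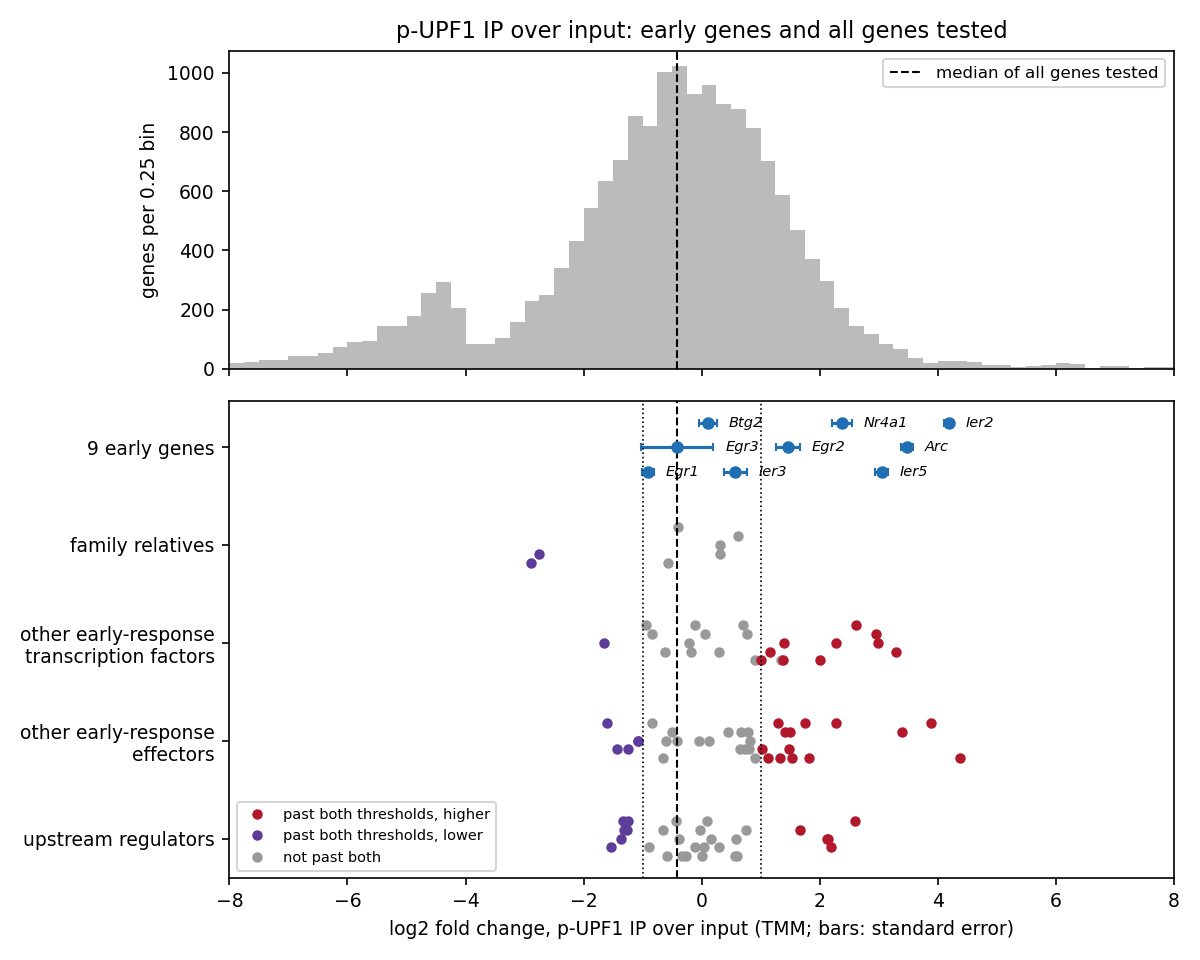
Log2 fold change of p-UPF1 IP over input for all 16919 genes tested (top, histogram) and for the 9 early genes with standard errors and 4 lists of related genes (bottom), with the median of all genes as a dashed line and the fold thresholds as dotted lines. The 9 genes run from Egr1 at -0.91 to Ier2 at 4.19, and 5 of them lie to the right of 1.

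Whether the RNA was also above what rIgG recovers was the second comparison, and here the low depth of the rIgG IP set the precision. Arc had 4, 0 and 0 counts in the rIgG IP libraries, Ier2 had 11, 1 and 1, and Ier5 had 1, 0 and 4. Nr4a1 and Egr3 had 0 counts in every rIgG IP library, Egr2 had 0, 1 and 0, Btg2 had 2, 1 and 0, and Ier3 had 2, 2 and 0. Egr1 alone reached 5 or more in each, at 12, 10 and 5. Values below are therefore ratios of summed counts, each divided by the group's total count, with exact (Clopper-Pearson) 95% intervals that cover counting error only and not the spread between libraries.

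Ier2 was 14.4-fold higher in the p-UPF1 IP than in the rIgG IP (8.41 to 27.1), Arc 11.2-fold (4.36 to 41.2) and Ier5 9.95-fold (4.25 to 30.7). Nr4a1 was at least 4.92-fold higher, computed against 3 counts over the whole rIgG IP group. These 4 genes of 8 tested were past both thresholds in the fit, as were 17.5% of 12033 genes tested. None of the 8 was lower by edgeR or DESeq2, also at an unadjusted p under 0.05, where 5.34% of genes tested were past both thresholds downward. Every p-UPF1 IP library was above every rIgG IP library in 5 of 8 genes, these 4 and Btg2, where 41.7% of genes tested were, and below in Egr1 alone, where 6.57% were. The median log2 fold change of all genes tested was itself 0.89 in the fit. Ier2, Arc and Ier5 lay above 80.9%, 79.4% and 79.0% of these genes, a lower place than they had over input. The place of Nr4a1 rests on 0 rIgG IP counts and is not given.

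Single rIgG IP libraries decided much of these ratios. Without rIgG IP replicate 1, Ier2 was 35.04-fold higher (9.69 to 289), Arc at least 5.60-fold, Nr4a1 at least 1.84-fold and Ier5 4.66-fold (1.81 to 17.1). Without rIgG IP replicate 3, which held 4 of the 5 Ier5 counts, Ier5 was 44.5-fold higher (7.98 to 1761). All of these ratios stayed above 1.

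The intervals of the other genes included 1. The ratio was 0.992 (0.375 to 3.72) for Ier3 and 0.780 (0.529 to 1.20) for Egr1, and the latter was 0.526 (0.316 to 0.946) without rIgG IP replicate 1. It was 3.80 (0.664 to 152) for Egr2 and 2.07 (0.694 to 10.2) for Btg2, which had 1 and 3 counts in the rIgG IP, so that a difference was not detectable at this depth. Without rIgG IP replicate 1 the ratio of Egr2 was 1.42 (0.249 to 56.8), and without rIgG IP replicate 2, which held its single count, none is given. Egr3 was not tested against the rIgG IP, because its summed count was under 10, and no fold is given.

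**Figure D4:**
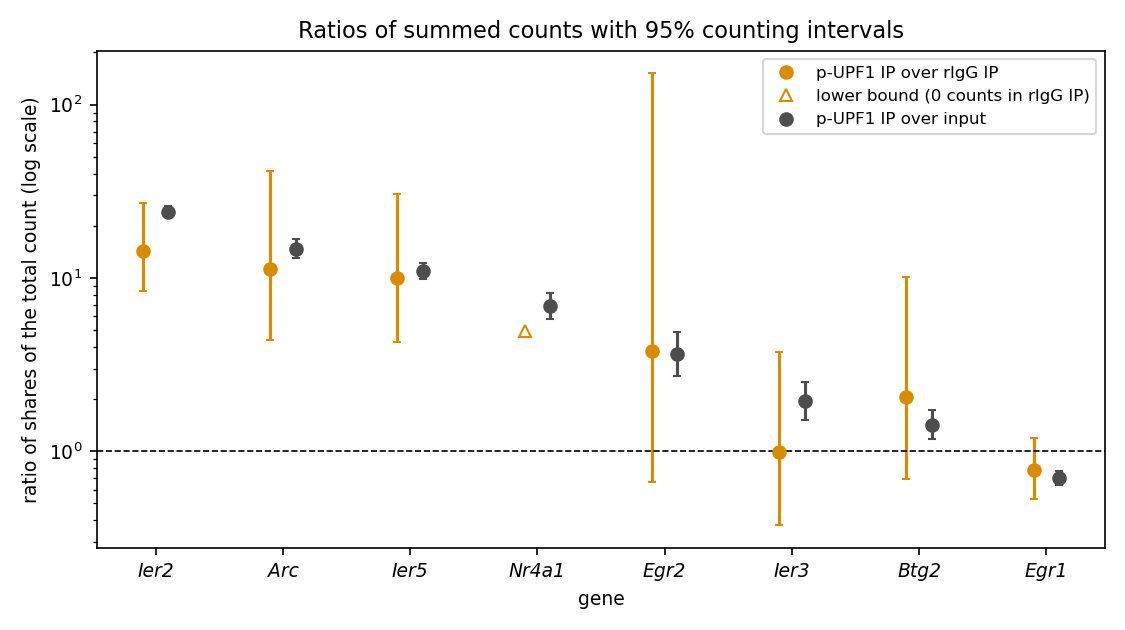
Ratio of each gene's share of the total count in the p-UPF1 IP to that in the rIgG IP (orange) and in input (grey), from summed counts with exact 95% counting intervals on a log axis, and an open triangle for the lower bound of Nr4a1. The orange intervals are wide throughout, and those of Ier2, Arc and Ier5 lie above 1. Scaling is by library totals, so the grey ratios are larger than the TMM folds given in the text.

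The background itself, rIgG IP against input, showed none of the 9 genes past the thresholds in either direction by edgeR or DESeq2, where edgeR placed 0.584% of 16280 genes tested higher and 0.313% lower. Every rIgG IP library was above every input library in none of the 9 (1.87% of genes tested) and below in Egr3, Nr4a1 and Btg2 (48.4% of genes tested), all of which had libraries at 0. At an unadjusted p under 0.05, edgeR counted 1 of the 9 lower and none higher, and DESeq2 counted 1 higher and none lower. By edgeR, 2011 of the 16280 genes tested were at such a p in either direction, so these counts describe the 9 genes and do not set them apart. By summed counts the ratio of rIgG IP to input was 1.68 (0.891 to 2.89) for Ier2, 1.32 (0.356 to 3.40) for Arc, 1.10 (0.355 to 2.58) for Ier5 and 0.901 (0.593 to 1.31) for Egr1. All of these intervals included 1.

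Counts assigned to single transcripts added a second layer to Arc and Nr4a1. In input, Arc-201 received 0, 0 and 4 of the Arc counts and Arc-202 received 97, 101 and 123. In the p-UPF1 IP, Arc-201 received 129, 173 and 290 and Arc-202 received 207, 190 and 50. The share of Arc-201 was therefore at most 3.15% in input (0.865% to 7.87%, exact interval), where 0 counts allow up to 3.09%, and it was 38.4% (33.2% to 43.8%), 47.7% (42.4% to 52.9%) and 85.3% (81.1% to 88.9%) in the p-UPF1 IP libraries. The summed Arc count was steady across these 3 libraries, while the split was not.

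The transcript of Nr4a1 that received most counts was not the same in both groups. In input, Nr4a1-201 received 54, 51 and 92 counts, or 91.5% (81.3% to 97.2%), 75% (63.0% to 84.7%) and 91.1% (83.8% to 95.8%) of the gene. In the p-UPF1 IP it was assigned 0 counts in every library, and all 95, 142 and 105 counts went to Nr4a1-202. Nr4a1-202 was also assigned counts in input, with 3, 17 and 8 or 5.08%, 25% and 7.92% of the gene. Here too the intervals take assigned counts as observed, and 0 assigned counts set no limit on the share of Nr4a1-201.

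Little sequence tells these transcripts apart. Of the 35-nt windows of Arc-201 and Arc-202, 34 of 3021 (1.13%) and 33 of 3020 (1.09%) were absent from every other transcript of Arc. For Nr4a1-201 and Nr4a1-202, 31 (1.27%) and 199 (7.90%) windows were their own, and for Egr1-202 it was 32 (1.07%). Egr2 transcripts also traded counts between libraries of the same group, where Egr2-201 received 30, 14 and 44 in input and 27, 6 and 33 after immunoprecipitation. The part of the estimation step in these splits was not tested, and for that reason the summed counts carry the comparisons above. Ier2, Ier3, Ier5 and Btg2 have a single transcript each and are free of this question.

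**Figure D5:**
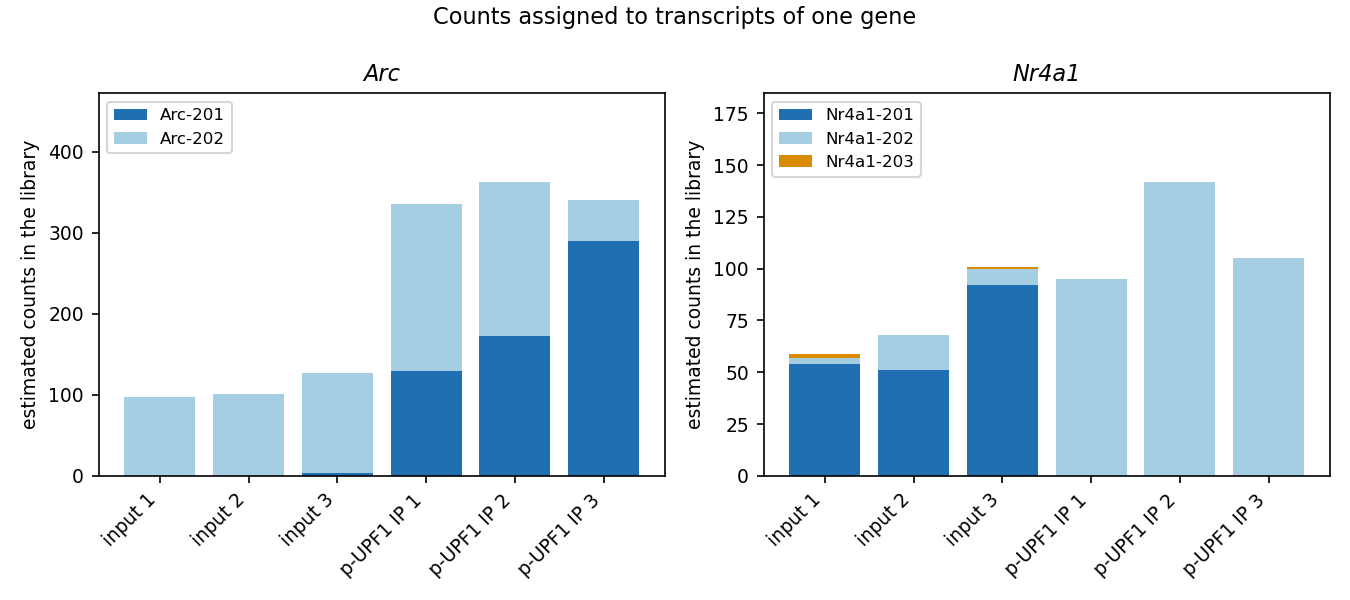
Estimated counts (not scaled for depth) assigned to each transcript of Arc and Nr4a1 in the input and p-UPF1 IP libraries, stacked to the gene's sum. Arc-201 is nearly absent from input and takes from 129 to 290 counts in the p-UPF1 IP, and Nr4a1-201 takes most of the input and none of the p-UPF1 IP counts.

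Relatives of the 9 genes were looked at next. Of 9 family members outside the 9 genes (Ier5l, Egr4, Nr4a2, Nr4a3, Btg1, Btg3, Btg4, Tob1 and Tob2), 7 could be tested in p-UPF1 IP over input. Of these, Tob1 and Btg3, both of the BTG/TOB family, were lower and the other 5 were past the thresholds in neither direction. Tob1 went from input counts of 368, 367 and 404 to 9, 16 and 19 counts from p-UPF1, with a log2 fold change of -2.90 ± 0.15. Btg3 went from input counts of 237, 234 and 256 to 8, 11 and 12 counts from p-UPF1, with a log2 fold change of -2.75 ± 0.15. Whether Btg2 differed from these relatives was not tested. Btg1 (-0.56), Tob2 (0.31) and Nr4a3 (-0.40) were past neither fold threshold.

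Early-response genes of other families were read against the same shares, 17.3% of all genes tested higher and 26.5% lower. All lists of related genes were chosen with earlier results of these data known, so their shares are a description and not an independent test. Of 25 further transcription factors of this class, 23 were tested, 10 (43.5%) were higher and 1 (4.35%) was lower, with a median log2 fold change of 0.91. Among them Per1 (3.29), Mafk (2.99), Id3 (2.96), Jun (2.62), Klf10 (2.28), Atf3 (2.00), Srf (1.40) and Klf6 (1.38) were higher and Id2 (-1.65) was lower. Fos (0.05), the partner of Jun in AP-1, and Jund (0.30) and Myc (-0.84) were not past the thresholds.

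Of 40 further effectors, 34 were tested, 14 (41.2%) were higher and 5 (14.7%) were lower, with a median of 0.80. Gadd45g (4.38), Gadd45b (3.89) and Gadd45a (1.49), the growth-arrest and DNA-damage genes, were all higher, as were Ppp1r15a (3.40), Tnfaip3 (2.27), Arl4d (1.82), Rnd3 (1.76) and Trib1 (1.53). Nab1 (-1.60), a corepressor of the Egr proteins, was lower, as were Gem (-1.44), Nfkbia (-1.25), Spry2 (-1.08) and Homer1 (-1.07), which like Arc acts at the postsynapse. Vgf (0.73), Mcl1 (0.79) and Zfp36l2 (-0.50) were past neither fold threshold.

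Together the lists of relatives, transcription factors and effectors had 24 (37.5%) higher and 8 (12.5%) lower among 64 tested. Their median was 0.72 beside -0.42 for all genes, and 34 were higher and 5 lower when libraries were scaled by totals alone. With filterByExpr, which tests fewer genes of low count, 24 were higher and 8 lower of 61, beside 2796 and 3350 of 12178 genes. Against the rIgG IP, 21 of 62 tested (33.9%) were higher and 1 (1.61%), Tob1, was lower, where 17.5% and 5.34% of all genes tested were, and DESeq2 placed 15 higher and 2 lower. None of 64 was past the thresholds in rIgG IP over input by edgeR or DESeq2 (at an unadjusted p under 0.05, edgeR counted 1 higher and 7 lower, and DESeq2 counted 4 higher and none lower). At such a p, edgeR counted 2011 of all 16280 genes tested in either direction.

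Genes that act upstream of this response were considered last. Of 30 kinases, coactivators and transcription factors, 29 were tested, 5 (17.2%) were higher and 6 (20.7%) were lower, beside the 17.3% and 26.5% of all genes, with a median of -0.03. The coactivators Crtc1 (2.60), Crtc3 (2.19), Mrtfa (2.15) and Mrtfb (1.66) and the kinase Mapk7 (2.13) were higher. Braf (-1.54), Creb1 (-1.36), Prkaca (-1.33), Mapk8 (-1.32), Elk3 (-1.26) and Elk4 (-1.24) were lower, and Gsk3b (-0.11) and Ep300 (-0.26) were past neither fold threshold.

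The profile most like the median of the 9 genes was sought among 6399 genes with at least 100 counts in each input library, as the root mean square difference of log2(CPM + 1) over the 9 libraries after centring. Prrc2b (0.126), Gm49701 (0.153), Clic4 (0.159) and Gnl3 (0.168) were among the nearest. The 9 genes themselves lay from 0.511 (Btg2) to 1.82 (Ier5) from their own median profile. These distances include the rIgG IP, where counts were few (1, 0 and 4 for Ier5), so counting noise enters them. Arc, Ier3, Egr2, Egr3 and Nr4a1 also had fewer than 100 counts in at least 1 input library, unlike the genes searched. Over input, the fold changes of the 9 genes ran from -0.91 to 4.19 on the log2 scale, so that no single profile described them.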

How the data were processed

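RIP-seq reads of 9 libraries were trimmed with fastp, mapped with STAR to GRCm38 and quantified per transcript with Salmon 0.13.1 by the authors, who deposited estimated counts that are whole numbers, not scaled for depth and not pooled. The strand setting was not given in the sources used here. All columns were matched to libraries by name. Counts were summed per gene symbol, so reads shared by transcripts of a gene do not affect the sums.

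Each pair of groups was compared over its 6 libraries with edgeR 4.0.16 in R 4.3.3 (TMM, quasi-likelihood test, summed count of at least 10), with Benjamini-Hochberg adjustment over all genes tested. Exact binomial intervals were computed with scipy 1.17.1. Standard errors were derived from each fold change with its F value. The script was tested on simulated data. Other settings tried were RLE factors, DESeq2 1.42.0, totals alone, filterByExpr, no filter, all 9 libraries in one fit, a fit without the 10 most-counted genes, the replicate number as a block, the most-counted transcript, the longest 3′ UTR, and leaving out each library in turn.

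The 9 genes and the lists of other genes were chosen with earlier results of these data known. From each list, up to 8 genes past the thresholds in a direction, by size of change, and the 3 most counted that were not past them are named, except for a few genes that are not reported here. Transcript structures and sequences were taken from GENCODE M21 (GRCm38), which matched all 23 transcripts by identifier and 22 by version. The authors mapped to a later GENCODE release of GRCm38. The smallest detectable count was set at 3, and limits and intervals cover counting error only, since PCR copies are not independent molecules.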

Additional observations from a re-analysis of the deposited data

How the results depend on the processing

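The same 5, 4 and 0 of the 9 genes were past the thresholds under each of the 14 alternatives for p-UPF1 IP over input, p-UPF1 IP over rIgG IP and rIgG IP over input. Of 371 alternative log2 fold changes of the 9 genes, 336 stayed within the spread between libraries and 35 moved. That spread is wide in the rIgG IP, where most of the 9 genes had libraries at 0, so staying within it says little there. Ier5 over rIgG IP stayed within it in all 14 alternatives while its log2 fold change ran from 2.57 to 5.34. In p-UPF1 IP over input, library totals alone raised all 9 (the median of all genes by 0.41) and gave 5 in place of 8 lower genes among the other early-response genes, and 4108 higher and 3160 lower in place of 2919 and 4480 among all genes. Counting the most-counted transcript only gave a log2 fold change of 2.02 for Arc and 5.06 for Nr4a1. Against the rIgG IP, the other early-response genes that were lower (1) numbered 2 with RLE factors, 2 with DESeq2 and 0 to 2 when a library was left out, and all genes numbered 2102 higher and 643 lower. DESeq2 gave 1162 and 905 and RLE factors 1456 and 799. Leaving out a library gave 1299 to 2033 higher, lowest without rIgG IP replicate 1 (1396 without rIgG IP replicate 2), and 307 to 674 lower, lowest without rIgG IP replicate 1. The median log2 fold change of all genes against the rIgG IP was 0.89 with TMM and 0.62 with RLE factors, and that of rIgG IP over input -0.84 and -0.56. In rIgG IP over input, 95 genes were higher (284 with DESeq2, 256 without a filter, 120 with RLE factors, 113 with library totals, 65 to 180 when a library was left out) and 51 lower (27 with RLE factors, 32 with library totals, 157 with filterByExpr, 259 without a filter, 100 with all 9 libraries, 25 to 134 when a library was left out, lowest without rIgG IP replicate 2 and highest without input replicate 2). The cause of these moves was not tested.

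Same-numbered libraries did not deviate together, with mean correlations of 0.031 for p-UPF1 IP over input, -0.019 over rIgG IP and -0.014 for rIgG IP over input, and 2 of 3 p-UPF1 IP libraries correlated best with the input library of their own number. With the replicate number as a block, p-UPF1 IP over rIgG IP had 1362 higher and 426 lower genes and 0 lower among the other early-response genes. The block left the counts for p-UPF1 IP over input at 2851 higher and 4181 lower.

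Depth in the rIgG IP limits every statement against it: a gene needs up to 38.0 CPM for 3 counts there, and Egr2, Egr3, Nr4a1 and Btg2 had at most 3 counts over the group. All cells were treated with okadaic acid, so no value shows what the treatment does.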
